A study of Mus musculus with 6 samples.

Results

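The genes of NF-kappaB and Toll-like receptor signalling were compared in cultured mouse melanoma cells, B16-F1 set against D5.1G4. The set holds 43 genes chosen by name. A probe was taken for a member when its accession mapped to the member's symbol, which gave 59 probes and at least 1 for each of the 43 members, out of 20659 genes with a probe. B16-F1 derives from the B16 tumour of C57BL/6 mice, and D5.1G4 is the line that the series text takes as the reference. Each line was measured on 3 one-colour Agilent arrays. No agent was given to either line. Cultures started from 1000000 cells and ran 24 h in RPMI-1640 with 10% serum, and reached 75% to 95% confluence. Nothing in the labels tells if replicates are separate cultures, so p-values measure only how these samples vary, which may be technical. Each value is the RNA of a whole culture, where fewer cells of a kind and less RNA per cell cannot be told apart.

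NF-kappaB is a family of dimeric transcription factors that IkappaB proteins hold inactive in the resting cell. Toll-like receptors sense microbial molecules and signal through the adaptor MyD88 and the IRAK kinases to TRAF6 and the kinase TAK1, which activates the IKK complex. IKK marks IkappaB for destruction and frees the dimers. A second, non-canonical branch runs from TNF receptor family members through the kinase NIK to the processing of the Nfkb2 product and is held down by TRAF2 and TRAF3. Many genes of the pathway are themselves NF-kappaB targets, and some of these, such as Nfkbia and Tnfaip3, encode inhibitors that end the response.

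Levels are the log2 of the processed signal minus the 75th percentile of the array, so a level of 0 stands at that percentile. They compare arrays for 1 probe and do not rank different genes. Differences are B16-F1 minus D5.1G4 on the log2 scale. Testing required a probe well above background on 3 or more of the 6 arrays, and a call required both an adjusted p up to 0.05 and a fold of at least 2. Adjusted p-values are from limma, 2-sided, with Benjamini-Hochberg adjustment over the 18451 features tested and 3 arrays of each line, except where stated. The share of spots well above background ran from 53.4% to 62.0%. Its highest values, 62.0% and 61.7%, belonged to B16-F1 replicates 2 and 3, the 2 arrays of slide 1, where a slide stands for the arrays with the same scan time in the file headers. Slide 2 held B16-F1 replicate 1 with D5.1G4 replicates 2 and 3, and slide 3 held D5.1G4 replicate 1. Slides 1 and 3 thus held 1 line each, and line and slide largely go together. A fit with slide as a term, or block, takes the difference between the lines from slide 2 only. What passes or misses in that fit rests on 1 B16-F1 array. Of the pigment lineage markers, 10 of 10 were well above background on every array of both lines. Their summed linear level, in units of the 75th percentile, ran from 522 to 629 in B16-F1 and from 628 to 871 in D5.1G4. These markers concern the melanocyte lineage, and the melanoma label itself was not tested.

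Calls fell on receptors, kinases, inhibitors and induced proteins of the pathway. Higher in B16-F1 were the receptor gene Tlr2, the co-receptor gene Cd14, the kinase gene Irak4 and the TNF-inducible gene Tnfaip2. Lower in B16-F1 were Bcl3, an atypical IkappaB protein, Map3k7, which encodes TAK1, and Tnfaip3, which encodes the inhibitor A20. Of the 43 members, 39 were tested, 4 were called higher and 3 lower. For Cd14 the lower bound of the fold lay under the minimum. The 7 called members are 17.9% of those tested, close to the 15.2% called over all features tested (6.29% higher, 8.89% lower). The median difference was -0.0071 over the tested members and -0.0041 over all features tested, and the median size of a difference was 0.45 and 0.43. With the adjusted p alone, 16 members (41.0%) passed, against 34.9% of all features. B16-F1 and D5.1G4 values were fully separate in 21 of the 38 members measured on every array (55.3%, against 50.7% of all features). The remaining 4 members, Rel, Tlr6, Cd40 and Il1r1, were well above background on none of the 6 arrays and were not tested.

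**Figure D1:**
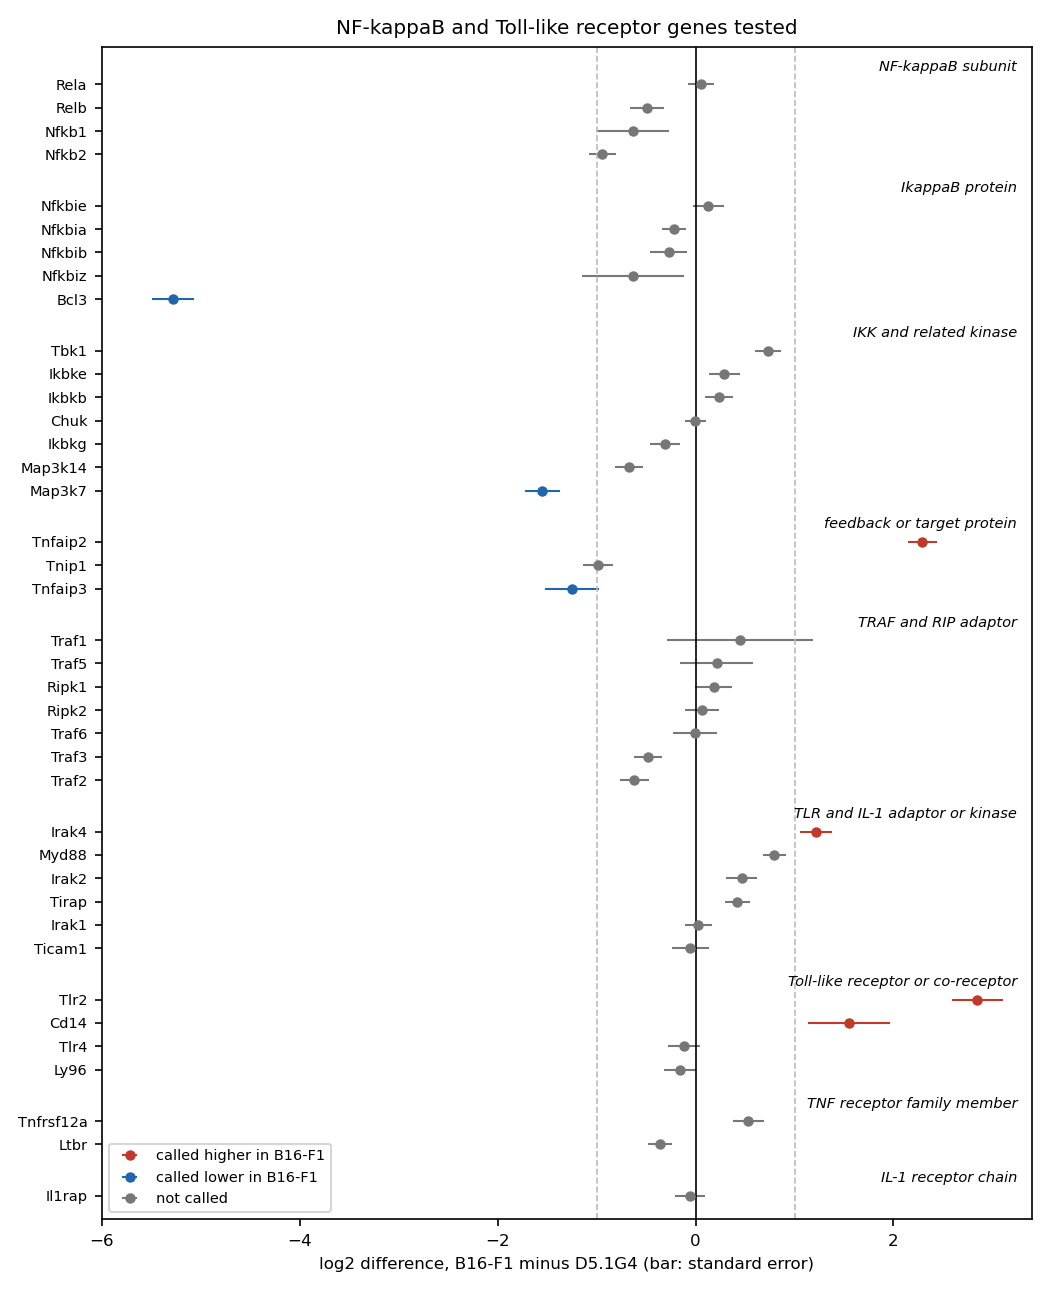
Log2 difference (B16-F1 minus D5.1G4, x axis) of the 39 tested members, grouped by role, with bars for the standard error and dashed lines at a 2-fold difference. Bcl3 lies far to the left at -5.28, Tlr2, Tnfaip2, Cd14 and Irak4 lie beyond the right dashed line, and most other members lie between the dashed lines.

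Of the 4 receptors and co-receptors tested, Tlr2 and Cd14 were called. Tlr2, the receptor for bacterial lipoproteins, had levels of -3.31, -3.63 and -4.22 on B16-F1 arrays, against -6.61, -6.32 and -6.77 on D5.1G4 arrays. The groups did not overlap, and Tlr2 was well above background on all 3 B16-F1 arrays and on no D5.1G4 array. Under the main processing the B16-F1 level was at least 2.66-fold higher. The fitted difference was 2.85 (SE 0.26, adjusted p = 0.000639). Within slide 2 it was 3.24, from B16-F1 replicate 1 against D5.1G4 replicates 2 and 3. The call was lost with normexp background correction, run with an offset of 50 (1.15, adjusted p = 0.188).

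Cd14, a co-receptor that hands lipopolysaccharide and lipoproteins to Toll-like receptors, had levels of -4.63, -4.46 and -5.02 on B16-F1 arrays, against -7.19, -5.81 and -5.75 on D5.1G4 arrays. All 3 B16-F1 values were higher, none of the D5.1G4 values was well above background, and D5.1G4 replicate 1 lay furthest below. The B16-F1 level was at least 1.35-fold higher, a bound under the minimum fold, and the call rests on the fitted difference of 1.55 (SE 0.41, adjusted p = 0.0304) from D5.1G4 values that were not well above background. The call ended without B16-F1 replicate 1 (1.51, adjusted p = 0.0595), replicate 2 (1.43, 0.0882) or replicate 3 (1.71, 0.0579), where the differences stayed near 1.55 and the p moved. It also ended with quantile normalization (1.47, 0.0877), the authors' deposited values (1.48, 0.0844) and normexp (0.68, 0.556). Without slide 1 (1.63), which leaves B16-F1 replicate 1 alone for its line, the call ended too. Within slide 2 the difference was 1.16, again from B16-F1 replicate 1 alone.

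The other receptors gave no call. Tlr4, the lipopolysaccharide receptor, had levels of 0.47, 0.48 and 0.27 on B16-F1 arrays, against 0.25, 0.77 and 0.55 on D5.1G4 arrays. Its difference was -0.12, with a 95% interval from -0.51 to 0.28 (adjusted p = 0.618). Ly96 encodes MD-2, the partner chain of Tlr4 that binds lipopolysaccharide. Its levels were 1.1, 1.19 and 0.90 on B16-F1 arrays, against 1.18, 1.47 and 1.02 on D5.1G4 arrays, a difference of -0.16 (95% interval -0.54 to 0.22, adjusted p = 0.473). The values of both genes overlapped between the lines, and a 2-fold difference lay outside both intervals. Tlr6, which pairs with Tlr2 to bind lipopeptides, was well above background in neither line.

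Tlr2 and Cd14 are also abundant in macrophages, so leukocyte markers were measured beside them. Of 10 markers of macrophages and other leukocytes 9 had a probe, and 6 were well above background on every B16-F1 array against 4 on every D5.1G4 array. Their summed linear level, in units of the array's 75th percentile, ran from 1.53 to 2.86 on B16-F1 arrays and from 1.12 to 2.07 on D5.1G4 arrays. The sum adds probes of unlike brightness and leans on Itgam, the brightest by mean in both lines. Itgam itself varied between arrays of a line and differed by 0.0032 between the lines (adjusted p = 0.997). The lysozyme gene Lyz2 was well above background on none of the 6 arrays. Ptprc, the common leukocyte antigen CD45, was well above background on B16-F1 replicates 2 and 3 and on no other array. The Fc receptor chain gene Fcer1g was called higher in B16-F1 (1.86, adjusted p = 0.000319). On every array of both lines, 2 of 2 keratinocyte markers, 2 of 4 endothelial markers and 0 of 5 fibroblast markers were also well above background. Passing this mark thus does not by itself show leukocytes. Whether leukocytes were present, and what part they had in the Tlr2 and Cd14 results, was not tested.

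**Figure D2:**
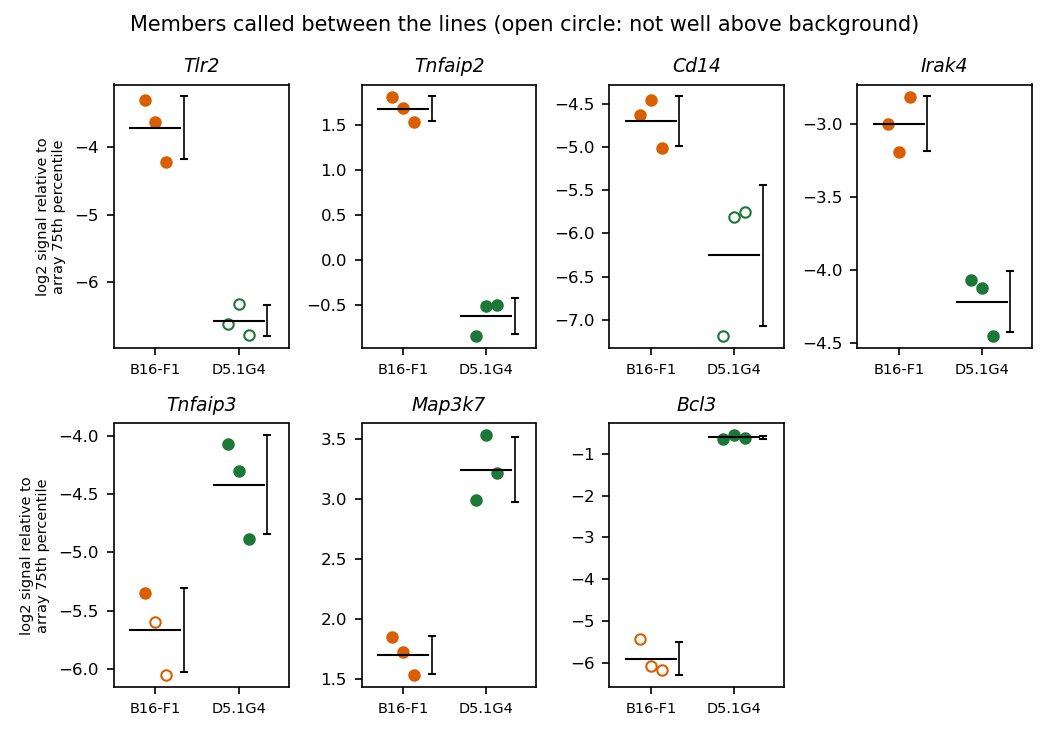
Level on each array (log2 signal relative to the array's 75th percentile, y axis) of the 7 called members in B16-F1 (left) and D5.1G4 (right), with the mean and an SD bar beside each group and open circles for arrays where the probe was not well above background. The groups do not overlap in any of the 7, the gap is widest for Bcl3, and the D5.1G4 points of Tlr2 and Cd14 and the B16-F1 points of Bcl3 are open, as are 2 B16-F1 points of Tnfaip3.

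Behind the receptors, 1 of the 6 adaptor and kinase genes of Toll-like and IL-1 receptors was called. Irak4, the kinase that first joins MyD88, had levels of -3.00, -3.19 and -2.82 on B16-F1 arrays, against -4.07, -4.13 and -4.46 on D5.1G4 arrays. The groups did not overlap, and Irak4 was 2.32-fold higher in B16-F1 (1.22, SE 0.16, adjusted p = 0.00251). A second Irak4 probe gave 1.19, and the call was lost with normexp (0.84, adjusted p = 0.125).

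Myd88, the adaptor shared by most Toll-like receptors and the IL-1 receptor, had levels of 0.08, 0.15 and 0.11 on B16-F1 arrays, against -0.82, -0.54 and -0.69 on D5.1G4 arrays. The 2 sets did not overlap and the difference was larger than the spread between replicates (0.79, SE 0.12, adjusted p = 0.00366), but at 1.73-fold it stayed under the minimum fold. Tirap, the bridging adaptor that brings MyD88 to Tlr2 and Tlr4, differed by 0.42 (adjusted p = 0.0491), also under the fold, and Irak2, a further kinase of the complex, by 0.47 (adjusted p = 0.0648). Irak1 and Ticam1, the adaptor TRIF of the MyD88-independent route, differed by 0.029 and -0.053 (adjusted p = 0.889 and 0.845).

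The TRAF and RIP proteins, which relay the signal from receptors to kinases, held 0 called members of 7, with 2 past the adjusted p alone. Those 2 were the NIK-restraining adaptors. Traf2 had levels of 1.39, 1.29 and 1.104 on B16-F1 arrays, against 1.66, 2.05 and 1.93 on D5.1G4 arrays, a difference of -0.62 (SE 0.15, adjusted p = 0.0217). Traf3 had levels of 1.95, 1.88 and 1.91 on B16-F1 arrays, against 2.64, 2.23 and 2.31 on D5.1G4 arrays, a difference of -0.48 (SE 0.14, adjusted p = 0.0406). Neither gene overlapped between the lines and neither reached the minimum fold, and a dimmer Traf2 probe gave -0.14. With slide as a term in limma, both missed the adjusted p (Traf2 -0.60 and Traf3 -0.32), in a comparison with 1 B16-F1 array.

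Traf6, Ripk1, Ripk2 and Traf5 differed by -0.0071, 0.18, 0.064 and 0.21, none with an adjusted p under 0.481. Traf1 is itself an NF-kappaB target. Its levels were -5.73, -2.98 and -3.34 on B16-F1 arrays, against -4.08, -4.31 and -5.01 on D5.1G4 arrays, with the arrays of slide 1 highest. The difference of 0.45 (adjusted p = 0.669) became -1.07 when slide was a block and 1.30, a call, without B16-F1 replicate 1 (adjusted p = 0.026).

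The TNF receptor family members that feed these adaptors were measured by 3 genes. Tnfrsf12a, the receptor Fn14 for TWEAK, had levels of 1.76, 1.71 and 2.11 on B16-F1 arrays, against 1.15, 1.38 and 1.46 on D5.1G4 arrays (difference 0.53, SE 0.16, adjusted p = 0.0428, under the minimum fold). Ltbr, the lymphotoxin beta receptor, differed by -0.36 (SE 0.12, adjusted p = 0.0686). Cd40, a receptor of antigen-presenting cells, was not well above background. Of the IL-1 receptor chains, Il1r1 was likewise not well above background, and the accessory chain gene Il1rap differed by -0.054 (adjusted p = 0.809), where a second, dimmer probe gave 0.93.

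Among the kinases, the 3 parts of the IKK complex itself gave no call. Ikbkb, the catalytic subunit IKK-beta, had levels of 0.96 and 0.81 on B16-F1 replicates 1 and 2, with replicate 3 left out as an outlier spot, against 0.64, 0.77 and 0.54 on D5.1G4 arrays. Its difference was 0.23 (95% interval -0.12 to 0.59, adjusted p = 0.26, 2 B16-F1 arrays and 3 D5.1G4 arrays in limma). Chuk, the other catalytic subunit, differed by -0.0013 (95% interval -0.27 to 0.26), and the scaffold gene Ikbkg by -0.31 (-0.69 to 0.067).

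Map3k7 fell. This gene of TAK1, the kinase that activates IKK downstream of Toll-like, IL-1 and TNF receptors, had levels of 1.84, 1.72 and 1.53 on B16-F1 arrays, against 2.99, 3.53 and 3.22 on D5.1G4 arrays. The groups did not overlap, and Map3k7 was 2.92-fold lower in B16-F1 (-1.55, SE 0.18, adjusted p = 0.00139). It remained called under each of the 19 alternatives run for it, and the other probes gave -1.11 and -0.77, the second of these under the minimum fold.

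Map3k14, the gene of NIK, had levels of -2.39, -2.28 and -2.47 on B16-F1 arrays, against -1.65, -1.54 and -1.93 on D5.1G4 arrays. Its difference was -0.67 (SE 0.14, adjusted p = 0.013). It lay under the minimum fold, and a second probe, well above background on 1 array, gave 1.56. Tbk1, a kinase related to IKK that activates interferon regulatory factors, stood the other way, with levels of -0.15, -0.25 and -0.37 on B16-F1 arrays, against -1.17, -0.90 and -0.89 on D5.1G4 arrays. That is a difference of 0.73 (SE 0.13, adjusted p = 0.00768), again under the minimum fold. Ikbke, the close relative of Tbk1, differed by 0.29 (adjusted p = 0.212).

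The members past the adjusted p but under the minimum fold numbered 9, among them Nfkb2 and Tnip1. With slide as a term, Traf2, Traf3, Myd88 (difference 0.69), Map3k14 (-0.65), Tirap (0.41) and Tnfrsf12a (0.34) missed the adjusted p. Tbk1 (0.75), Nfkb2 (-1.02) and Tnip1 (-0.88) did not miss it. That comparison sets B16-F1 replicate 1 against D5.1G4 replicates 2 and 3, too few arrays for either outcome to settle these differences. No sign changed with that term.

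**Figure D3:**
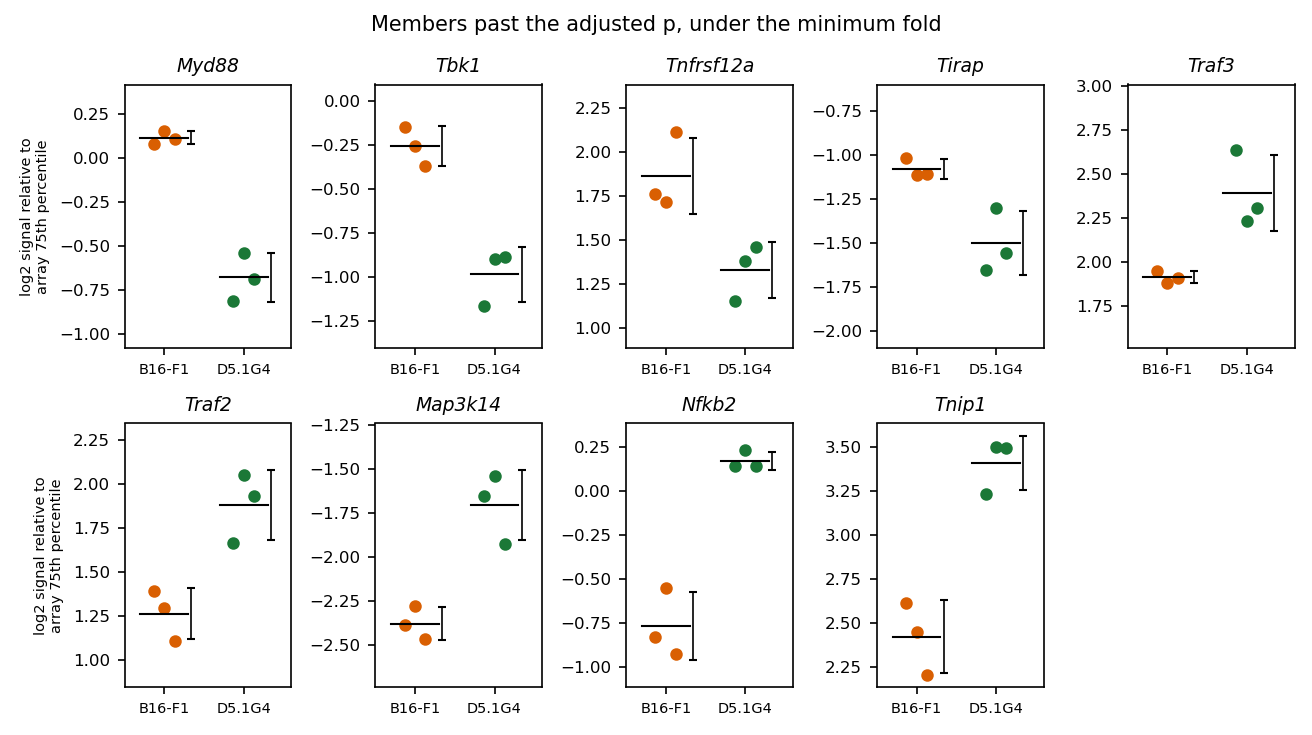
Level on each array (log2 signal relative to the array's 75th percentile, y axis) of the 9 members that passed the adjusted p but not the minimum fold, B16-F1 left and D5.1G4 right in each panel, with the mean and an SD bar beside each group. Myd88, Tbk1, Tnfrsf12a and Tirap are higher in B16-F1, and Traf3, Traf2, Map3k14, Nfkb2 and Tnip1 are lower, with no overlap in any panel.

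The NF-kappaB subunits held 0 called members of the 4 tested. Rela, the activating p65 subunit, had levels of 3.49, 3.56 and 3.51 on B16-F1 arrays, against 3.67, 3.43 and 3.31 on D5.1G4 arrays. It differed by 0.051, with a 95% interval from -0.26 to 0.37 (adjusted p = 0.786), so a 2-fold difference lay outside the interval. Nfkb1, the source of p50, had levels of -0.93, -0.66 and -0.50 on B16-F1 arrays, against 0.79, -0.49 and -0.49 on D5.1G4 arrays. D5.1G4 replicate 1 alone stood high, the difference was -0.64 (SE 0.37, adjusted p = 0.235), and a second probe gave 0.52.

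The non-canonical subunits lay lower in B16-F1 without a call. Nfkb2, the source of p52, had levels of -0.83, -0.55 and -0.92 on B16-F1 arrays, against 0.14, 0.23 and 0.14 on D5.1G4 arrays. The difference of -0.94 (SE 0.13, adjusted p = 0.00319) is 1.92-fold and just under the minimum, and it passed without B16-F1 replicate 2 (-1.05). It also passed the fold without the slide 1 arrays (-1.0015) and when slide was a block (-1.02), comparisons that each have 1 B16-F1 array. Relb, the partner of p52, differed by -0.49 (adjusted p = 0.0701), and its second probe gave -0.36. Rel, the c-Rel subunit of lymphoid cells, was not well above background.

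The IkappaB family held the largest difference of the pathway. Bcl3, a nuclear IkappaB protein that binds p50 and p52 dimers and alters the transcription they give, had levels of -5.43, -6.07 and -6.17 on B16-F1 arrays, against -0.64, -0.57 and -0.63 on D5.1G4 arrays. Only the D5.1G4 arrays, all 3 of them close together, were well above background. Under the main processing Bcl3 was at least 35.9-fold lower in B16-F1. The fitted difference was -5.28 (SE 0.21, adjusted p = 4.07e-05), with -4.84 within slide 2 and a smaller -2.86 with normexp. Bcl3 was called under each of the 18 alternatives that could give it a value. Bcl3 had 1 probe on the array.

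The classical inhibitors gave no call. Nfkbia, the gene of IkappaB-alpha and a textbook feedback target of NF-kappaB, had levels of 1.18, 1.29 and 0.99 on B16-F1 arrays, against 1.41, 1.31 and 1.40 on D5.1G4 arrays. The values came close without overlapping, and the difference was -0.22 (95% interval -0.51 to 0.076, adjusted p = 0.215). Nfkbib and Nfkbie, the genes of IkappaB-beta and IkappaB-epsilon, differed by -0.27 and 0.13 (adjusted p = 0.303 and 0.567), with 2 further Nfkbib probes at 0.034 and 0.27. Nfkbiz, an inducible nuclear member, had a difference of -0.63 with a wide 95% interval from -1.88 to 0.62.

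The inhibitors and induced proteins gave calls in both directions. Tnfaip2, a TNF-induced protein involved in membrane protrusions, had levels of 1.80, 1.69 and 1.53 on B16-F1 arrays, against -0.84, -0.51 and -0.49 on D5.1G4 arrays. The groups lay far apart, Tnfaip2 was 4.89-fold higher in B16-F1 (2.29, SE 0.15, adjusted p = 0.000191), the second probe gave 2.23, and the call held in each of the 19 alternatives run for it.

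Tnfaip3, whose product A20 removes ubiquitin chains and so damps IKK activation, had levels of -5.35, -5.60 and -6.06 on B16-F1 arrays, against -4.07, -4.30 and -4.89 on D5.1G4 arrays. B16-F1 replicate 1 and all 3 D5.1G4 arrays were well above background, and B16-F1 lay 2.38-fold lower (-1.25, SE 0.28, adjusted p = 0.0157). The call ended with normexp (-0.19, adjusted p = 0.876) and without D5.1G4 replicate 2 (-1.19, 0.0561). It also ended without the arrays of slide 1 (-0.93), and with slide as a block or within slide 2 alone (-0.75). Rel, Tlr6, Cd40 and Il1r1, which were not detected, also lay lower in B16-F1 (-0.59, -0.58, -0.54 and -1.50). The lowest detected signal was -5.50, -5.73 and -6.17 on B16-F1 arrays, against -5.10, -5.09 and -5.21 on D5.1G4 arrays. What part such a shift near background has in the Tnfaip3 difference was not tested. Tnip1, which encodes ABIN1, a partner of A20, had levels of 2.61, 2.45 and 2.203 on B16-F1 arrays, against 3.23, 3.50 and 3.49 on D5.1G4 arrays. The difference of -0.99 (SE 0.15, adjusted p = 0.00442) just missed the minimum fold, a second probe gave -1.02, and the gene was called without B16-F1 replicate 1 (-1.08) or without D5.1G4 replicate 1 (-1.07).

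**Figure D4:**
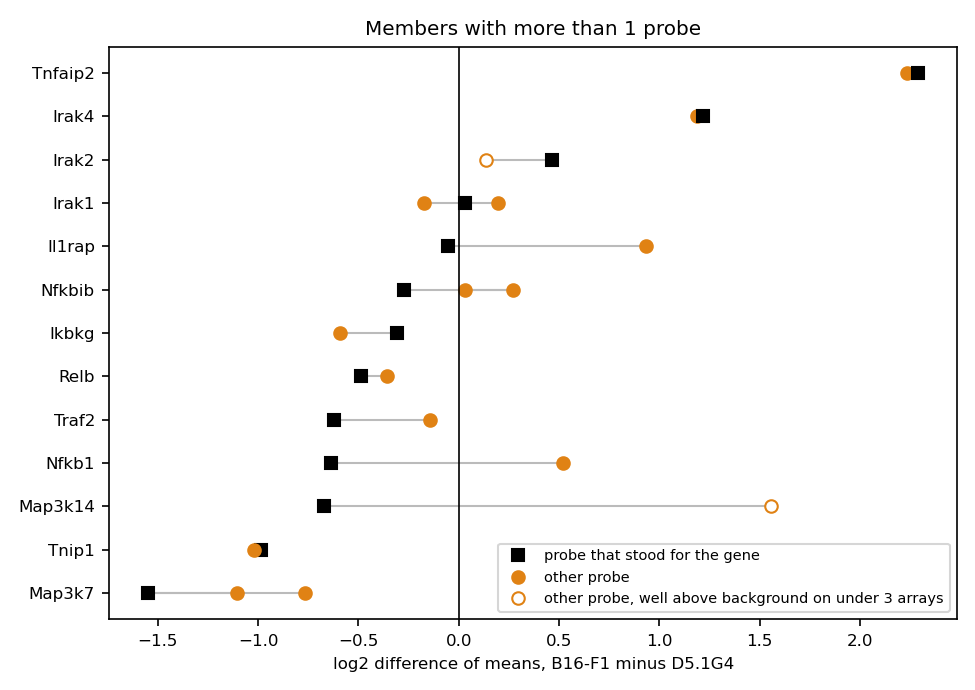
Log2 difference of means (B16-F1 minus D5.1G4, x axis) for each probe of the members with more than 1 probe, the square marking the probe that stood for the gene and open circles marking probes well above background on fewer than 3 arrays. The probes of Tnfaip2, Irak4, Tnip1 and Map3k7 lie on 1 side of 0, while those of Nfkb1, Map3k14, Il1rap, Nfkbib and Irak1 lie on both.

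The promoters of the members were read because many genes of this pathway are NF-kappaB targets. RefSeq windows on the GRCm38.p6 build, running from 250 bases before to 50 bases after the start site, were matched by symbol for 34 members (45 windows). The kappaB consensus, searched on both strands, occurred in 13 of the 45 member windows (28.9%), which belong to 11 members, and in 4.51% of all 32851 windows. A looser pattern of 3 G, 5 bases of any kind and 2 C, also searched on both strands, occurred in 36 of the 45 member windows and in 50.8% of all windows. The windows were not matched for base composition, some genes have several windows, and a match is no evidence of binding. Of the 7 called members 4 held a consensus match, 3 of them lower in B16-F1 (Bcl3, Map3k7, Tnfaip3) and 1 higher (Tlr2). Tnfaip2 and Irak4 had a window with no match, and Cd14 had no window. Tnfaip3 had a second window, without a match, that is not shown. The matching windows of Bcl3, Map3k7, Tnfaip3 and Tlr2 are shown 5′ to 3′ on the gene's strand, with that of Nfkbia, which was not called. Capitals mark the consensus matches, overlapping ones as 1 run.
Bcl3, chr7:19822706-19823005, minus strand: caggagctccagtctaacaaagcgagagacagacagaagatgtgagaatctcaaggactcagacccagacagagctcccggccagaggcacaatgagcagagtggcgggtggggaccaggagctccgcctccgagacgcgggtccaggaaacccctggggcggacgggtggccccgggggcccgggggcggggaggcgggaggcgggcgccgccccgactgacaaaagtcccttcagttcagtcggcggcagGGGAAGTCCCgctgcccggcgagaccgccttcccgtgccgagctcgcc
Map3k7, chr4:31963857-31964156, plus strand: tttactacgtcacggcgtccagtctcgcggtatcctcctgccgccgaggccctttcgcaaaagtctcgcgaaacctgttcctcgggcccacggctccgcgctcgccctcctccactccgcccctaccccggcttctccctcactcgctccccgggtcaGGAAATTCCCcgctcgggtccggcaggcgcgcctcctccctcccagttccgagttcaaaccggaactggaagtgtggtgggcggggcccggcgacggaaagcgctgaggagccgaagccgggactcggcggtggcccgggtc
Tnfaip3, chr10:19015361-19015660, minus strand: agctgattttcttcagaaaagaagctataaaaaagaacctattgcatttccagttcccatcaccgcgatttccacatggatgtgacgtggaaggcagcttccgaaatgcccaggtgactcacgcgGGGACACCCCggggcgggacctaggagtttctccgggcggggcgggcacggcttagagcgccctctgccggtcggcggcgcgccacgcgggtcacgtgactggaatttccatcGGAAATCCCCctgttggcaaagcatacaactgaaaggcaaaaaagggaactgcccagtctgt
Tlr2, chr3:83841559-83841858, minus strand: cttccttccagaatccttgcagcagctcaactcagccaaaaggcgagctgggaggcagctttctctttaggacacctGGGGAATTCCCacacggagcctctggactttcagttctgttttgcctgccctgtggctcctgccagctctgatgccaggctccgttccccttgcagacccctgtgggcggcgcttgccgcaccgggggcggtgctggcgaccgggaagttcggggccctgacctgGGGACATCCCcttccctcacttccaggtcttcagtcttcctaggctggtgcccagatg
Nfkbia, chr12:55492598-55492897, minus strand: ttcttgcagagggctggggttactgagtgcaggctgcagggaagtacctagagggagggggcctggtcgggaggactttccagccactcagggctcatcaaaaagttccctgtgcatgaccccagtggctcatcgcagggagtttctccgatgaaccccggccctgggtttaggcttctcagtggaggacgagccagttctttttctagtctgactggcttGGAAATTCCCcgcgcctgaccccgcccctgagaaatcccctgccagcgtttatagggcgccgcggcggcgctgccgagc

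Counting the start site as 1 on the gene's strand and the base before it as -1, the Bcl3 match GGGAAGTCCC began at position 3, and the Nfkbia match GGAAATTCCC at -29. The same letters as in Nfkbia stood at -92 in the Map3k7 window. In the Tlr2 window an overlapping pair began at -173 and -172 and another match at -8. Of the members just under the minimum fold, Nfkb2 had GGGACTTTCC at 11 and GGAATGTCCC at -236 in 1 window. The GGGACTTTCC site lay at -225 in a second window that overlaps it. Another Nfkb2 window held an overlapping pair at -39 and -38 and a match at -11. The Tnip1 window held overlapping matches at -58, -57 and -56. The other members with a match were Nfkbia, Nfkbie and Traf3, which were not called, and Rel and Il1r1, which were not tested.

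A wider list of 60 other genes of the pathway, chosen with earlier results of these data known, had 44 tested members, with 2 called higher and 1 lower (6.82%, against 15.2% of all features tested) and a median difference of -0.01. Tbkbp1, which binds TBK1, had levels of 1.69, 1.48 and 1.43 on B16-F1 arrays, against 0.067, 0.14 and 0.28 on D5.1G4 arrays, and rose by 1.37 (SE 0.13, adjusted p = 0.000669). Traf4, a TRAF family member, rose by 1.05 (SE 0.17, adjusted p = 0.00532). Lbp carries lipopolysaccharide to CD14 and was well above background in D5.1G4 alone. Its levels were -7.71, -7.94 and -8.12 on B16-F1 arrays, against -4.51, -3.96 and -3.40 on D5.1G4 arrays, at least 3.59-fold lower in B16-F1 under the main processing. The fitted difference of Lbp was -3.97 (SE 0.29, adjusted p = 0.000317), which uses B16-F1 values that were not well above background. The count of 3 calls became 5 without B16-F1 replicate 1, without B16-F1 replicate 2 or without D5.1G4 replicate 1, and 6 when slide was a block, but 1 with normexp. A further 11 genes passed the adjusted p alone, 5 higher and 6 lower, among them the paracaspase gene Malt1 (-0.94) and the IL-1 family brake Sigirr (-0.996). Another 11, Tlr5, Tlr11, Tlr12 and Birc3 among them, were well above background on none of the 6 arrays.

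Of 45 further genes known as NF-kappaB targets, 21 were well above background on none of the 6 arrays, including Il6, Il1a, Il1b, Cxcl1, Cxcl2, Ptgs2, Icam1 and Vcam1. Of the 21 tested, 2 rose and 4 fell (28.6%, against 15.2% of all features tested), with a median difference of 0.21. With normexp 1 target was called, beside 1275 of 18453 features. The 2 that rose were the immediate early gene Ier3 (1.08, adjusted p = 0.00114) and the chemokine gene Cxcl10 (1.06, 0.0318). The death receptor gene Fas (-3.18, adjusted p = 0.00086) and the chemokine gene Ccl5 (-2.86, 0.00109) fell furthest. The stress-response gene Gadd45b (-1.78, adjusted p = 0.00067) and the proteoglycan gene Sdc4 also fell. Sdc4 had levels of -3.18, -3.12 and -3.06 on B16-F1 arrays, against -1.596, -2.08 and -2.10 on D5.1G4 arrays, with no overlap, and was 2.29-fold lower (-1.19, SE 0.17, adjusted p = 0.00296). A further 5 targets passed the adjusted p but stayed under the minimum fold, 4 higher and 1 lower. The higher ones were Ccnd1 (0.84, adjusted p = 0.0108), Hif1a (0.72, 0.0280), Myc (0.60, 0.0436) and Ninj1 (0.56, 0.0178). The lower one was Sod2, the mitochondrial superoxide dismutase (-0.89, adjusted p = 0.00283). Tnf was well above background on fewer than 3 arrays and was not tested.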

How the data were processed

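RNA of B16-F1 and D5.1G4 cells was hybridised to Agilent mouse 4x44K v2 arrays, 3 for each line. Per the file headers, the deposited signal is an intensity on a linear scale from Agilent Feature Extraction 11.0.1.1, background-subtracted and detrended within the array, and the other deposited columns used are 0 or 1 marks for spots well above background or outlying. The authors' own deposited table gives log2 values for 22147 probes, with its normalization between arrays not stated. The array's annotation is on mm9.

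The log2 of the intensity minus the array's 75th percentile was taken, outlying spots were left out, and repeated spots were averaged to give 39429 probes. No spot was saturated. Accessions matched 27234 probes to 1 gene of the RefSeq table of GRCm38.p6, whose coordinates are not used for the array. The probe with the highest mean stood for a gene. Differences were fitted with limma 3.58.1 (lmFit, eBayes) under R 4.3.3 in a model of line alone, a step tested on simulated data. "At least" marks a fold where a line had no array well above background for the gene: each dim array then counts at its lowest detected signal or the probe's signal, whichever is higher. Such a fold is a bound for dim signal under the main processing and no confidence limit. Another processing can give a smaller fold. The number of arrays limits the precision. Alternatives changed the normalization, background, filters, probes, slide, replicate block and arrays left out, with normexp run on the median signal because the files hold no mean signal. Normexp also added an offset of 50 to each signal, which makes differences between dim signals smaller.

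The members, gene lists and tests were chosen with earlier results of these data known. Every member is reported, with values on each array for called members, for those above background in 1 line only and for Nfkb1, Rela, Nfkbia, Ikbkb, Myd88, Tlr2, Tlr4, Cd14, Ly96 and Tnfaip3. Other members and list genes given on each array, and list genes named without a call, were chosen after their values were seen. The kappaB consensus was added after the windows had been seen.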

Additional observations from a re-analysis of the deposited data

How the results depend on the processing

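Of the 7 called members, Bcl3, Map3k7 and Tnfaip2 were called in every alternative that gave them a value, and no called member changed sign. Tlr2 and Irak4 lost the call with normexp background correction only, Tnfaip3 in the settings given beside its values, and Cd14 in those given beside its values and with the replicate block. Of the 32 members not called, 3 (Nfkb2, Tnip1, Traf1) were called in at least 1 alternative.

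With normexp the calls numbered 1275 over all features, 3 among the members (1 higher), 1 among the other pathway genes and 1 among the targets. Requiring all 6 arrays above background left 3 members called, 2 higher and 1 lower, since this removes genes dim in 1 line. The other pathway genes had 6 calls with slide as a block, and the cause was not tested. The fit within slide 2 alone was added after seeing the data. With no minimum fold, 6435 features, 16 members (8 higher, 8 lower), 14 other pathway genes and 11 targets passed. Leaving out 1 array at a time gave 2531 to 3379 calls over all features, 6 to 8 among members, 3 to 4 higher, 2 to 4 lower, 3 to 5 among other pathway genes and 5 to 6 among targets. Same-numbered arrays did not pair (correlations of deviations -0.385, -0.0266 and -0.302). With the replicate block 6 members and 2581 features were called, and among the called members only Cd14 lost its call (1.55 as before, adjusted p = 0.0658). Of the 9 members past the adjusted p but under the minimum fold, Traf2 (0.0801), Traf3 (0.0923), Tirap (0.134) and Tnfrsf12a (0.0717) missed it with that block, and these 4 and Map3k14 (0.491) missed it with normexp.

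The sign turned only in members that were not called, and the cause was not tested. Chuk became 0.11 with quantile normalization, 0.11 with the authors' deposited values, 0.0265 with the percentile over probes detected on all arrays, 0.085 with slide as a block or within slide 2, and 0.066 without slide 1. Traf1 became -1.07 with slide as a block or within slide 2 and -1.26 without slide 1. Traf6 became 0.021 with that percentile, 0.065 with normexp and 0.12 with slide as a block or within slide 2. Ripk2 became -0.028 with quantile normalization, -0.012 with the authors' values and -0.17 with slide as a block or within slide 2. Ticam1 became 0.13 without slide 1, Nfkbib 0.012 with the mean over probes, and Il1rap 0.18 with normexp and 0.44 with the mean over probes. Leaving out 1 array at a time gave ranges that cross 0 for 10 members: Rela -0.029 to 0.15, Chuk -0.055 to 0.033, Traf1 -0.071 to 1.30, Traf5 -0.12 to 0.56, Traf6 -0.16 to 0.22, Ripk2 -0.10 to 0.20, Irak1 -0.046 to 0.12, Ticam1 -0.19 to 0.078, Tlr4 -0.25 to 0.0078 and Il1rap -0.13 to 0.069.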
